A study of Capra hircus with 10 samples.

Results

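Some goat genes gave rise to several circular RNAs (circRNAs) from the same stretch of DNA, and the genes described here are those with 3 or more. The members were chosen from the authors' junction count table by counting how many listed circRNAs carried each host gene name, with circRNAs that had no host name left out. This rule gave 69 host genes with 259 circRNAs, out of 945 host genes and 1327 circRNAs in the table, or 7.30% of the hosts and 19.5% of the circRNAs. The choice used the number of listed circRNAs per gene and no difference between groups.

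RNA sequencing was done on cultured cells from the intramuscular fat of the longissimus dorsi muscle of goats, and reads that cross a back-splice junction were counted. One group was intramuscular preadipocytes at day 0 of adipogenic differentiation (IMPA, 5 libraries). The other was intramuscular adipocytes at day 3 (IMA, 5 libraries), after differentiation medium with oleic acid at 50 µmol/L. All libraries were wild type (WT), and the cells came from 3 male Jianzhou goats aged 7 days. As there were fewer goats than libraries in a group, some libraries must share an animal, and the labels do not say which goat gave which library, so every p-value below describes differences between libraries.

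A circRNA forms when the spliceosome joins the end of an exon to the start of the same or an earlier exon, a reaction called back-splicing. The start that receives the joint is the back-splice acceptor and the end that is joined to it is the donor. A gene can give several circRNAs when one acceptor is joined to different donors, when different acceptors are joined to one donor, or when separate loops form in different places. Each circle is told apart only by its junction, and because it has no free ends it is degraded more slowly than linear RNA.

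Depth was 14156, 11421, 14355, 12283 and 15553 junction reads in IMPA1 to IMPA5. It was 11145, 10066, 12499, 9622 and 10234 in IMA1 to IMA5. The IMPA libraries were on the whole deeper, although IMPA2 and IMPA4 lay below IMA3. The paper also lists a lower share of reads mapped to the genome for every IMA library than for every IMPA library. This difference and the stage cannot be told apart here, and its part in the comparisons below was not tested. The 259 circRNAs held 25660 of 121334 junction reads, or 21.1%. Their percent of the reads averaged 21.4 (SD 0.385) over the 5 IMPA libraries and 20.8 (SD 0.418) over the 5 IMA libraries. The difference of -0.604 points was small beside those totals, and the ranges overlapped, since IMPA1 and IMPA2 lay below IMA1. All 69 hosts had reads in each of the 10 libraries. A host had on average 3.59 ± 0.0585 detected circRNAs in an IMPA library and 3.30 ± 0.0887 in an IMA library (SD, n = 5 each), and the shallower group was the one with fewer. The smallest count above 0 in the table was 2, and 65.4% of the member counts above 0 were under 10, so the smaller circRNAs are known only coarsely. A count of 0 was listed for 8.19% of the member values.

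Most hosts only just met the rule. There were 45 hosts with 3 circRNAs, 11 with 4, 8 with 5 and 1 with 6, and just outside the rule stood 175 hosts with 2. The upper end consisted of LMO7, which encodes a LIM domain protein of cell junctions and the actin cytoskeleton, with 9 circRNAs, and CEP112, which encodes a coiled-coil protein of the centrosome, with 11. In between, DOCK1 and CEMIP had 7 each and ARHGEF7 had 6. DOCK1 and ARHGEF7 encode activators of small GTPases that shape the actin cytoskeleton, and CEMIP encodes a protein that binds hyaluronan and promotes its breakdown. The table annotated 251 of the 259 circRNAs as exon. The other 8 were annotated as intron, in 4 hosts (EPB41L4A, MARK3, MED17 and SEMA3F), and 2 of them led their host. The genomic span of a member had a median of 13249 nt against 8045 nt over all circRNAs, while the listed spliced length was alike at 316 and 320 nt.

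The hosts had varied roles. Of 10 gene lists by function, chromatin and histone modification held 5 of the hosts (ATAD2B, ATRX, EHMT1, KMT2C and WHSC1). The lists of the cytoskeleton (DIAPH3, DLG1, LMO7 and UTRN) and of signalling kinases, phosphatases and GTPase regulators (DOCK1 and VRK1 among them) held 4 each. Extracellular matrix and adhesion had 3 (CEMIP, ITGA4 and ITGAV), and lipid and insulin related genes had 2 (APP and OSBPL1A). Centrosome and cell division (CEP112), transcription factors (ZEB1) and ubiquitin ligases (UBE3A) had 1 each. The lists of RNA binding proteins and of membrane traffic had 0, with 14 and 18 of their genes giving any circRNA. In the other lists such genes numbered 18 for chromatin, 23 for the cytoskeleton, 30 for signalling and 18 for matrix and adhesion. They numbered 7 for lipid and insulin, 15 for centrosome, 14 for transcription factors and 24 for ubiquitin ligases. Over all hosts, 7.30% had 3 or more circRNAs, and an excess in any list was not tested. In all, 21 of the 69 hosts were on a list. The lists were short and hold only some genes of each kind: ASH1L, KANSL1, RFWD2 and STAU2, whose roles are given below, were on none of them.

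Shared ends were common. Of the 259 circRNAs, 147 (56.8%) had the same acceptor as another circRNA of their host and 79 (30.5%) the same donor. Either was true for 199 (76.8%), both for 27 and neither for 60. In hosts with 2 circRNAs, which form a single pair per host, 36.6% shared the acceptor and 24.6% the donor. The share with either fell to 63.0% (92 of 146) when only circRNAs with reads in all 10 libraries were kept, which also left fewer possible partners per host. Per host, 61 had at least one shared end, 32 had all their circRNAs tied to another by a shared end, and 8 had none.

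Counted as pairs within a host, 137 of 429 (31.9%) had the same acceptor and 44 (10.3%) the same donor. Another 20 pairs were nested and 41 overlapped without a common end, and 187 (43.6%) lay apart on the gene. The 69 hosts used 168 acceptors and 218 donors. Fewer acceptors than donors were used by 33 hosts and fewer donors than acceptors by 13, with equal numbers in 23. Among circRNA hosts with 2 members the pair counts were closer, with 64 pairs on one acceptor and 43 on one donor.

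A total of 56 acceptors and 38 donors were used more than once. Of the acceptors, 26 served 3 or more circRNAs and 17 served all circRNAs of their host. Of the donors, 3 served 3 or more, in MARK3, KMT2C and KANSL1, and 1 served all of its host, KANSL1, which encodes a subunit of a histone acetyltransferase complex. These KANSL1 circRNAs, named because they form that single case, ended at donor chr19:45678134 and had 231 reads. The coordinates are the authors', counted from 1. Their genome build is not named in the sources used here, but all 259 circRNAs lay inside their host gene as placed by the RefSeq table of ARS1.2. The partner nearest to a shared acceptor gave the most reads at 28 of 56 acceptors, and the nearest partner led at 17 of 38 shared donors. At the 65 ends shared by 2 circRNAs the nearest partner led at 32. With 3 or more circRNAs, where it is 1 of at least 3 partners, it led at 13 of 26 acceptors and 0 of 3 donors. In hosts with 2 circRNAs it led at 64 of 107 shared ends. A preference for the nearest partner was not tested.

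The shared acceptor with the most circRNAs and reads was in EHMT1, which encodes a histone methyltransferase of silent chromatin. All 5 EHMT1 circRNAs began at chr11:105670084 on the minus strand and reached donors between 105666855 and 105629701, and together they had 678 reads. MED17, a subunit of the Mediator complex that links transcription factors to RNA polymerase, had 4 circRNAs from chr29:538605, with 523 reads. In both hosts the whole choice of circle lay in the donor.

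ARHGEF7 was built in another way. Its 6 circRNAs on chromosome 12 used 3 acceptors (836064, 829039 and 812797) and 3 donors (822402, 812368 and 804706). Acceptor 836064 was joined to donors 822402 and 812368, and acceptor 829039 to all of the 3 donors. CEP112 used 6 acceptors and 9 donors for its 11 circRNAs on chromosome 19. ITGAV, which encodes the alpha V subunit of receptors for matrix proteins, lay at the other extreme: its 3 circRNAs were separate loops on chromosome 2 (126784953-126793052, 126796662-126798108 and 126802393-126805490) with no end in common.

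The leading circRNA of a host, the one with the most junction reads over the 10 libraries, held a median of 47.8% of the host's reads. Over the 69 hosts this share ran from 27.4% to 91.3%, with quartiles of 40.2% and 57.9%. Hosts with 2 circRNAs had a median of 63.0%, but a leader of 2 cannot fall below an equal split. More than 50% was held by the leader in 33 hosts, and more than 75% in 5. The mean leading share in a library averaged 50.3% ± 0.940 over IMPA1 to IMPA5 and 50.6% ± 2.51 over IMA1 to IMA5 (SD), so dominance as a whole differed by less than the spread between libraries.

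The 5 hosts above 75% were UBE3A (91.3%), ITGAV (89.8%), CEMIP (83.4%), PAPD7 (79.1%) and MBTPS2 (76.2%). UBE3A encodes a ubiquitin ligase, PAPD7 a noncanonical poly(A) polymerase, and MBTPS2 a membrane protease that releases sterol-regulated transcription factors. UBE3A, PAPD7 and CEMIP were also the hosts with the most reads, at 1475, 1468 and 1409. In UBE3A the leader circ_0009593 (chr21:1519363-1525199) had 1346 reads, and the other circRNAs, which began at the same acceptor and ran to farther donors, had 78 and 51. PAPD7 had the same order, with 1161 reads for circ_0009534 (chr20:66422777-66426883) and 199 and 108 for the longer circRNAs from its acceptor. In KIFAP3, which encodes a kinesin-associated protein, and ZEB1, a transcriptional repressor, the leader held 67.3% and 62.4%.

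At the low end stood LMO7 (27.4%), RFWD2 (30.1%), ADAMTS9 (31.0%) and CEP112 (31.3%). RFWD2 encodes a ubiquitin ligase and ADAMTS9 a secreted metalloproteinase of the matrix. In ADAMTS9 the leader was tied with the next circRNA, at 89 reads each. Of the other hosts with many circRNAs, DOCK1 had a leading share of 36.3% and MARK3, a kinase of microtubule-binding proteins, 40.6%. A leader that was the same in all 10 libraries was found in 23 hosts (33.3%), and in 9 hosts the leader led in fewer than 6 libraries. The leader by summed reads differed between IMPA and IMA in 13 of the 69 hosts, LMO7 among them. Of the 175 hosts with 2 circRNAs, 52 (29.7%) had the same leader in all libraries and 31 had a different leader between groups. A change of leader was thus not particular to the 69 hosts.

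The leader was not reliably the smallest or the largest circle. It had the shortest span of its host in 24 hosts (34.8%) and the longest in 20 (29.0%). Median span was 10728 nt for leaders and 13517.5 nt for the others, and median listed spliced length 356 and 309 nt. Along the gene, the leader used the most upstream acceptor of its host's circRNAs in 24 of the 52 hosts with more than 1 acceptor. It used the most downstream donor in 16 of 68.

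The comparison of IMA with IMPA asked which circRNAs change as preadipocytes become adipocytes. Of the 259 members, 258 had a count above 0 in at least 5 libraries and were tested with edgeR over all 1294 such circRNAs. The member that was not tested was circ_0009656 of CEMIP, with 2 reads in IMPA1, 3 in IMPA4 and 0 elsewhere. At an adjusted p under 0.01, 6 members were called (2.33%), against 0.927% of all circRNAs tested. Higher in IMA were 2 and lower were 4, where 0.464% of all tested were called in each direction. These are 6 of the 12 calls in the table. Without the library scaling called TMM, 3 members were called (2 higher and 1 lower), and the count depended on single libraries: it was 3 without IMPA1, 3 without IMPA3, 2 without IMPA5 and 3 without IMA1. Over all members the shift was slight, with a median log2 change of -0.09 against -0.06 over all circRNAs tested, and 56.2% lower in IMA against 55.1%. Leaders and the others had medians of -0.10 and -0.08. Groups that did not overlap were found for 17 members (6.59%), against 4.40% of all tested. In these bulk samples, fewer cells that make a circRNA and less of it per cell cannot be told apart.

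The members called higher in IMA were both from LMO7 (chr12:35518099-35564342, minus strand). Reads of circ_0006499 (chr12:35520126-35552054) were 13, 6, 16, 10 and 19 in IMPA1 to IMPA5 and 32, 25, 50, 24 and 31 in IMA1 to IMA5. Every IMA library lay above every IMPA library, with IMPA2 the lowest and IMA3 the highest. Normalised levels, as counts scaled by the junction reads of the library and its TMM factor (CPM), were 948 ± 293 and 2917 ± 659.5 (SD, n = 5 each), a log2 change of 1.46 ± 0.205 (SE, 2.75-fold, edgeR adjusted p 1.25e-05). Its neighbour circ_0006511 (chr12:35548439-35552054) had 11, 5, 10, 13 and 6 reads in the IMPA libraries and 19, 18, 28, 24 and 20 in the IMA libraries. Again the groups did not overlap. The means were 692 ± 285 and 1991 ± 321 CPM, and the log2 change was 1.34 ± 0.232 (SE, 2.54-fold, edgeR adjusted p 0.000308). Both calls held without any 1 library.

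These circRNAs share the acceptor chr12:35552054 with circ_0006514, and LMO7 reads from it rose more than those from the other acceptor used by 3 circRNAs. The 3 circRNAs from it had 24, 11, 31, 26 and 25 reads in the IMPA libraries and 54, 46, 81, 52 and 54 in the IMA libraries. The 3 circRNAs from acceptor chr12:35539653, whose largest is circ_0006502, had 23, 30, 28, 26 and 22 in IMPA and 26, 27, 29, 27 and 26 in IMA. The former had no overlap between groups, with means of 1764 and 5203 CPM, while the latter had means of 1995 and 2477 CPM. As a share of LMO7 reads, the acceptor at 35552054 went from 36.5% ± 9.31 to 56.1% ± 3.54 and that at 35539653 from 41.9% ± 10.4 to 27.1% ± 3.66 (SD, n = 5 each). Most of the 404 reads from chr12:35552054 were of circ_0006499 (226) and circ_0006511 (154), the circRNAs already called. Of the LMO7 donors used by 2 circRNAs, chr12:35548439 went from 977 to 2518 CPM and chr12:35531651 from 1835 to 2278 CPM. The acceptors and donors were set apart in this way after their values were seen, and no test was made of them.

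The primers the authors listed for both LMO7 circRNAs are shown because they reflect what the circles have in common: the reverse primer is the same for both, and the forward primers differ. With no genome of the authors' build, the places of the primers on the exons were not looked up.
circ_0006499 forward: tcagttgaagcaggtagccc
circ_0006499 reverse: agtgttgggaacgcttgtct
circ_0006511 forward: ttcaaaagatctatggtgagaacg
circ_0006511 reverse: agtgttgggaacgcttgtct

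LMO7 is also expressed in muscle, and the circRNA of 1 muscle gene, MYPN, was called higher in IMA too. That of MYBPC1 was also called, but it had reads in IMA alone and met the count filter only through that group, so it had to differ. Of 10 marker genes of myoblasts or muscle fibres, 4 had a circRNA (PAX7, MYPN, MYBPC1 and FHOD3), and MYOD1, MYF5, DES, TTN, NEB and MYH3 had none. The paper lists the circRNAs of MYPN, MYBPC1 and FHOD3 as upregulated, from these same libraries. A sum over the 4 genes would therefore rise through the choice of genes, so none is given. PAX7, a regulator of muscle stem cells, had the most, with 68 reads in IMPA and 63 in IMA. MYPN went from 11 to 52 reads, MYBPC1 from 0 to 36 and FHOD3 from 4 to 24, with edgeR adjusted p of 0.000922, 0.000189 and 0.0730, and PAX7 had 0.844. The part of muscle cells in the LMO7 result was not tested. None of the 8 adipocyte markers (PPARG, CEBPA, FABP4, ADIPOQ, PLIN1, LPL, LEP and CIDEC) and none of the 7 preadipocyte markers had a circRNA in the table, so 0 of either could be used to check the labelled cell types. The same held for 4 endothelial and 3 immune markers.

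The 4 members called lower in IMA came from EHMT1, CEMIP, CEP112 and WHSC1. For the EHMT1 leader circ_0005888 (chr11:105666855-105670084) the reads were 38, 31, 44, 40 and 57 in IMPA and 21, 18, 19, 14 and 18 in IMA. No IMA library reached the lowest IMPA library. Mean CPM fell from 3163 ± 436 to 1643 ± 180, a log2 change of -0.88 ± 0.171 (edgeR adjusted p 0.00150), and without IMPA5, its highest library, the adjusted p was 0.0103.

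The CEMIP leader circ_0009677 (chr21:26404025-26405703) had 178, 121, 157, 111 and 191 reads in IMPA and 74, 76, 109, 78 and 80 in IMA. IMA3 came closest to the IMPA libraries, but the groups stayed apart in reads and in CPM. The means were 11394 ± 1535 and 7596 ± 803 CPM, with a log2 change of -0.58 ± 0.119 (edgeR adjusted p 0.00303). The adjusted p passed 0.01 without IMPA1 (0.0140), IMPA3 (0.0112), IMPA5 (0.0203) or IMA1 (0.0190), and also without TMM (0.0136).

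In CEP112 the leader circ_0009231 (chr19:61732412-61736148) had 59, 42, 72, 47 and 67 reads in IMPA and 30, 30, 32, 25 and 29 in IMA. The IMA libraries were close to each other and all below IMPA. The log2 change was -0.67 ± 0.150 (edgeR adjusted p 0.00856), from 4324 ± 646 to 2670.3 ± 148 CPM. This call rested on many libraries at once: the adjusted p was 0.0156 without IMPA1, 0.0488 without IMPA3, 0.0203 without IMPA5, 0.0212 without IMA1, 0.0142 without IMA2, 0.0326 without IMA3, 0.0258 without IMA4 and 0.0101 without IMA5. It was also above 0.01 with DESeq2 size factors (0.0119), without TMM (0.0256), with the DESeq2 Wald test (0.0330) and with a replicate block (0.0161).

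WHSC1 encodes another histone methyltransferase. Its leader circ_0003129 (chr6:115901670-115924848) had 32, 27, 34, 34 and 33 reads in IMPA and 16, 13, 13, 15 and 15 in IMA. The values within each group were close and the groups did not overlap. CPM went from 2442 ± 253 to 1326 ± 187, a log2 change of -0.81 ± 0.184 (edgeR adjusted p 0.00935). With any 1 of the 10 libraries left out the adjusted p was above 0.01, from 0.0129 without IMPA5 to 0.0493 without IMA3. It was also above 0.01 with DESeq2 size factors (0.0135), without TMM (0.0256), with the DESeq2 Wald test (0.0496), with limma voom (0.0122) and with a replicate block (0.0153). With libraries left out, the other values were 0.0156, 0.0150, 0.0262 and 0.0267 without IMPA1 to IMPA4, and 0.0190, 0.0271, 0.0136 and 0.0131 without IMA1, IMA2, IMA4 and IMA5.

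At an adjusted p under 0.05, 8 members were called, against 1.39% of all tested. The added members were circ_0000946 of ITGAV, described below, which met the count filter only through IMPA and so had to differ, and circ_0011573 (chr28:39102885-39111412), the leader of LOC102191110, a gene without a name in the tables. The latter had 40, 27, 34, 24 and 31 reads in IMPA and 16, 13, 14, 17 and 11 in IMA. Every IMA library was below every IMPA library. Its log2 change was -0.79 ± 0.191 (edgeR adjusted p 0.0169), and the adjusted p passed 0.05 without IMPA1 (0.0804) or IMA3 (0.0590) and with the DESeq2 Wald test (0.0630).

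With the reads of each host summed, 4 of the 69 hosts were called (5.80%), against 1.30% of all 922 hosts tested with edgeR. LMO7 was 1 host called higher in IMA, against 0.542% of all, and CEMIP, EHMT1 and LOC102191110 were 3 called lower, against 0.759%. All of these calls held without any 1 library. An unadjusted p under 0.05 was reached by 25 of the 69 (36.2%), against 16.1% of all hosts tested. The members had more reads per host than most, with a median of 271 against 123 in hosts with 2 circRNAs, and the part of read depth in these shares was not tested. The median log2 change was -0.09 over the 69 hosts and -0.06 over all hosts. Groups did not overlap in 5 hosts (7.25%), against 4.77% of all.

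Summed LMO7 reads were 61, 51, 67, 64 and 72 in IMPA and 100, 90, 137, 91 and 91 in IMA. All IMA libraries lay above all IMPA libraries. The log2 change was 0.94 ± 0.120 (1.92-fold, edgeR adjusted p 3.79e-07), and 7 of the 9 circRNAs were above 0. The largest of the others, circ_0006502, had a log2 change of 0.47 ± 0.193 (edgeR adjusted p 0.236).

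CEMIP reads summed to 220, 141, 194, 139 and 232 in IMPA and 92, 88, 115, 89 and 99 in IMA. No value of IMA came up to the lowest of IMPA. The log2 change was -0.64 ± 0.109 (edgeR adjusted p 0.000115), and all 6 tested circRNAs lay below 0, between -1.26 and -0.35, with the leader alone called. EHMT1 had 90, 67, 94, 92 and 113 reads in IMPA and 46, 43, 48, 40 and 45 in IMA. The groups did not overlap, and the log2 change of the host was -0.73 ± 0.130 (edgeR adjusted p 0.000169). The estimates of its 5 circRNAs lay between -0.88 and -0.16, and of these the leader alone was called.

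LOC102191110 had 66, 39, 57, 57 and 69 reads in IMPA and 25, 26, 30, 25 and 16 in IMA. The groups were apart and IMA5 was the lowest. The log2 change was -0.91 ± 0.161 (edgeR adjusted p 0.000169). At 0.05 VRK1, which encodes a nuclear kinase active in cell division, was added, which made 5 member hosts called, against 2.06% of all hosts. Of these, 1 was higher (0.542% of all) and 4 were lower (1.52% of all). Its reads were 70, 56, 65, 37 and 61 in IMPA and 32, 32, 47, 19 and 20 in IMA. The groups overlapped through IMPA4 and IMA3. The log2 change was -0.64 ± 0.169 (edgeR adjusted p 0.0248). Without IMA3 the adjusted p was 0.00401, and it passed 0.05 without IMPA1 (0.0994), IMPA2 (0.0755), IMPA3 (0.0728), IMPA5 (0.0787), IMA1 (0.0564), IMA4 (0.123) or IMA5 (0.0726), and without TMM (0.0527).

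By function, the calls among hosts on a list were 1 of 5 lower for chromatin (EHMT1), 1 of 3 lower for matrix and adhesion (CEMIP) and 1 of 4 higher for the cytoskeleton (LMO7), where 0.759% of all hosts tested were called lower and 0.542% higher. None of the 4 signalling, 2 lipid and insulin, 1 centrosome, 1 transcription factor or 1 ubiquitin ligase hosts was called by edgeR. The median log2 change of the hosts was -0.04 for chromatin, 0.17 for matrix and adhesion, -0.16 for the cytoskeleton, -0.11 for signalling and 0.03 for lipid and insulin. The single hosts CEP112, ZEB1 and UBE3A were at -0.31, -0.02 and -0.05. All of these lie beside a median of -0.06 over all hosts.

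The circRNAs of a host did not always change in the same direction. All tested circRNAs were lower in IMA in 18 hosts and higher in 12, and 39 hosts were mixed. Over 423 pairs of tested circRNAs of one host, the log2 changes had the same sign in 63.8% and differed by a median of 0.39. Pairs on the same acceptor had the same sign in 75.4% of 134 cases and differed by 0.34. Pairs on the same donor did so in 56.8% of 44 and differed by 0.42, overlapping pairs with no common end in 54.1% of 61 (0.47), and pairs that lay apart in 60.3% of 184 (0.42). Pairs of one host share libraries and often circRNAs, so these figures are a description.

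Isoform usage asks whether the circRNAs of a host change differently from each other. All 69 hosts were among the 240 tested with edgeR's usage test, and 1 was called (1.45%), against 0.417% of all tested: the only call in the table was ITGAV (F 21.0, edgeR adjusted p 3.73e-05). An unadjusted p under 0.05 was reached by 9 of the 69 and by 24 of the 240. The next member host was LMO7 (adjusted p 0.139). The ITGAV call rests on circRNAs that met the count filter only through the group in which they had reads, so passing the filter already required a difference. With no filter the adjusted p was 4.65e-05.

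In ITGAV, circ_0000946 (chr2:126796662-126798108) had 7, 3, 10, 2 and 3 reads in the IMPA libraries and 0 in all 5 IMA libraries. The circRNA circ_0000948 (chr2:126802393-126805490) had 0 in all 5 IMPA libraries and 2, 2, 3, 2 and 3 in the IMA libraries. Each was thus seen in one group only, and they were the only tested members of which this was true. In 3 of the 5 IMPA libraries circ_0000946 had 3 reads or fewer, so no fold is given. Its edgeR adjusted p was 0.0124 for its level and 0.00216 for its usage. For its level it was 0.118 with a replicate block, and without any 1 of the IMPA libraries it had reads in too few libraries to be tested. For circ_0000948 both groups were at or under 3 reads, so it has no fold either, and its usage had an edgeR adjusted p of 0.0751. The leader circ_0000943 (chr2:126784953-126793052) had 34, 30, 31, 35 and 32 reads in IMPA and 48, 26, 29, 29 and 31 in IMA. Apart from IMA1 the groups overlapped, and its log2 change was 0.26 ± 0.172 (edgeR adjusted p 0.526).

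Together these circRNAs held 25 and 12 of the 362 reads of ITGAV. Leaving out 1 library with the filter on counts lost the call in 6 of 10 cases, with an adjusted p of 0.135, 0.230, 0.152, 0.174 and 0.198 without IMPA1 to IMPA5 and of 0.0111 without IMA1. In all 10 of those fits a circRNA with reads in exactly 5 libraries fell below the filter and the host was tested with 2 circRNAs. With no filter, an alternative chosen after seeing the data, ITGAV was called in all 10 cases, with adjusted p from 0.000121 to 0.00124.

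The share held by the leader was also compared between groups by an exact two-sided permutation test over the 252 ways of dividing the libraries. The test covered 226 hosts with reads in every library, all 69 members among them. It could call none: with a smallest possible p of 0.00794, an adjusted p under 0.01 would have needed 180 of the hosts at that p. The count of 0 called, or 0% of all tested, was therefore fixed by the design, and the values are given as a description. An unadjusted exact p under 0.05 was reached by 10 of the 69 and by 30 of the 226. That smallest p was reached by 4 members (5.80%), against 5 of all 226 hosts (2.21%). The members were CEP112, ARHGEF7, EPB41L4A and MBTPS2. In each of them the leader's share was lower in every IMA library than in every IMPA library. The share went from 34.5% ± 3.86 to 27.1% ± 3.71 in CEP112 and from 80.3% ± 3.43 to 71.1% ± 7.05 in MBTPS2 (SD, n = 5 each). EPB41L4A, named after its values were seen, went from 63.0% ± 4.85 to 52.5% ± 3.34.

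Among the 50 hosts with at least 10 reads in every library, the largest differences in leading share were in ARHGEF7 (-18.6 points), ASH1L (17.6), ZNF451 (16.6), STAU2 (-14.8) and WHSC1 (-13.2). Their exact permutation p were 0.00794, 0.135, 0.0556, 0.0317 and 0.0397, unadjusted. Single libraries decide the order: without IMA3 the difference in ARHGEF7 was -11.4 points, and without IMA2, in which the leader held all of the host's 16 reads, that in ASH1L was 8.64 points. ASH1L encodes a histone methyltransferase, ZNF451 a zinc finger protein that attaches SUMO, and STAU2 a protein that binds double-stranded RNA. In ARHGEF7 the leader circ_0006764 (chr12:822402-836064) had 35, 20, 28, 24 and 34 reads in IMPA and 18, 14, 0, 13 and 19 in IMA. IMA3, which had no read of it, stood apart, and in CPM the groups overlapped, with IMA5 (1822) above IMPA2 (1734). In LMO7 the leader's share rose from 19.8% ± 6.01 to 31.3% ± 4.24, by 11.5 points (exact permutation p 0.0159, unadjusted).

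Reads at the junction sites that did not cross the junction, listed by the authors beside the junction reads, are taken as a measure of linear RNA of the host. They were compared for the 690 circRNAs listed in all 10 libraries, 146 of them members. At an edgeR adjusted p under 0.01, 35 members (24.0%) were called, against 21.7% of all tested, with 16 higher (11.6% of all) and 19 lower in IMA (10.1% of all). Without TMM 35 were called as well, but with 10 higher and 25 lower. The 35 came from 19 hosts, and circRNAs with a shared end have part of these reads in common, so they are not 35 separate observations. Of them, 28 had a junction change of the same sign, and both kinds of read were called for 4. Neither count was worked out over all circRNAs, so neither is read as a trait of these hosts.

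Among the members CEMIP had the largest fall in these reads. At circ_0009677 there were 1386, 1196, 1522, 1321 and 2068 in IMPA and 423, 415, 449, 407 and 437 in IMA. The IMA libraries were all far below the lowest IMPA library. The log2 change was -1.22 ± 0.0708, and at circ_0009657 it was -1.31 ± 0.0699 (-1.28 and -1.38 without TMM). For LMO7, circ_0006499 and circ_0006511 had log2 changes of 0.26 each in these reads, against 1.46 and 1.34 at the junction. Without TMM both were at 0.19, and the adjusted p of circ_0006499 was then 0.0108. EHMT1 fell by 0.36 at circ_0005888, and APP, which encodes the amyloid precursor protein and was named after its values were seen, rose by 0.86 and 0.81. ITGAV stayed within the error at circ_0000943, at 0.05 (edgeR adjusted p 0.565).

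From both kinds of read, the circular share at a junction is 2 times the junction reads, divided by the sum of that number and the other reads. Its median was 10.6% over the 146 members and 11.8% over all 690. Leading members had 16.0% (61 circRNAs) and the others 9.65% (85). Leaders were picked by their junction reads, which also enter this share, so a higher value follows in part from the choice. The share was higher in IMA for 107 of the 146 members, as for 509 of the 690. PAPD7 circ_0009534 (78.3%) and ZEB1 circ_0006968 (69.9%) had the highest shares of the members. From IMPA to IMA the share went from 16.9% to 28.0% for CEMIP circ_0009677, whose junction reads fell less than its linear reads, and from 1.95% to 6.004% for LMO7 circ_0006499.

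The authors' table of predicted miRNA sites paired 256 of the 259 circRNAs with at least 1 miRNA. The median was 9 miRNAs per circRNA, the same as over all 1327. Per host, the predictions named a median of 22 different miRNAs, from 7 to 66. In 26 of the 69 hosts at least 1 miRNA was predicted for all circRNAs of the host, and a median of 8 miRNAs per host were predicted for 2 or more. These are predictions on sequence, and circRNAs of one host that overlap also share sequence.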

How the data were processed

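The authors deposited counts of reads over each back-splice junction, one count per library. They mapped reads with HISAT2 and kept circRNAs called by both find_circ (at least 2 reads) and CIRI2. Versions and genome build are not given in the sources used here. Positions, lengths and non-junction reads come from the authors' circRNA table, and miRNA pairs from their predictions. Starts in that table are 1 nt before the first base and are printed from 1. Chromosome numbers were taken through host gene identifiers from the RefSeq table of assembly ARS1.2, of which no coordinates are given, and 1310 of 1327 circRNAs had an identifier in it. Where an identifier of a circRNA had more than 1 entry, the first was used. Another 10 library names in the circRNA table have no samples here and were not used.

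Of the 10 libraries, 5 were IMPA and 5 were IMA. Counts were tested with edgeR 4.0.16 (TMM, quasi-likelihood F test, prior count 2, a count above 0 in at least 5 libraries) in R 4.3.3, with Benjamini-Hochberg adjustment over the whole table and calls at an adjusted p under 0.01. The same test was made on reads summed per host. Isoform usage was tested with edgeR's diffSpliceDGE. Shares of the leading circRNA were compared by exact permutation with scipy 1.17.1 in Python 3.11.15. Non-junction reads are listed only for libraries in which a circRNA was found, so the 690 circRNAs listed in all 10 were used, in place of the count filter. DEGseq, which the authors used, does not use the spread between libraries and was not run. The fits were also run on simulated data, of which no outcome is given here, and no value above rests on it. Alternatives were DESeq2 1.42.0, limma 3.58.1, other filters and scalings, an adjusted p under 0.05, a replicate block and leaving out each library.

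Hosts were named by rule: the 8 with the most circRNAs, the 8 with the most reads, the 5 highest and 5 lowest leading shares among hosts with at least 100 reads, every call under 0.05, the 5 largest share differences among hosts with at least 10 reads in every library, and the 3 most used shared ends. The members and lists were chosen with earlier results of these data known. The 20 pairs of libraries within a group were compared by chi-square, which was 1.18 to 1.55 times its degrees of freedom, so all pairs differed by more than counting noise. Depth was 9622 to 15553 junction reads per library.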

Additional observations from a re-analysis of the deposited data

Results flagged for a closer look

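Of 58 groups of 5 libraries looked at for one library far from the others, over 29 values, 1 stood apart, and chance alone sets apart about 1 in 20 groups. It was the share of ARHGEF7 reads held by its leader circ_0006764 in the IMA libraries. IMA3 had 0 of 26 reads, a share of 0%, and the other IMA libraries had 31.7% to 38.9%. The gap to the nearest library was 0.815 of the group's range. In IMA3 the host's reads came from the other circRNAs, among them 12 of circ_0006761 and 6 of circ_0006763, so the gene was detected in that library. The table lists no counts of 1, so a single read of circ_0006764 in IMA3 would not be seen.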

How the results depend on the processing

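Over the counts, medians and differences reported, 92 of 108 alternatives stayed within 1.5 times the count or within the spread between libraries, and 16 did not. Members called at the circRNA level went from 6 to 3 without TMM and to 2 to 5 with 1 library left out, and were 4 to 8 otherwise, with the 2 LMO7 circRNAs the members called higher in each. Hosts called were 4 or 5 throughout. With a replicate block, 4 circRNAs and 4 hosts were called, ITGAV usage had an adjusted p of 0.00428, and 39 members were called for non-junction reads. Libraries of equal number did not pair up: residuals correlated at -0.0524 to 0.0105, and in none of the 5 was the own number the highest.

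The usage count of 1 became 0 with a mean count of at least 10, which leaves 18 of the hosts testable, and 0 by the exact permutation test of the leading share, which could not reach an adjusted p under 0.01 and so shows nothing about the call. It was 0 to 1 with 1 library left out, through the filter, and 1 in all 10 cases with no filter. The median leading share of 47.8% was 49.98% as a mean of library shares and 47.6% to 49.7% with 1 library left out. The 76.8% with a shared end became 63.0% among circRNAs found in all libraries, and stayed the same with ends matched within 5 nt.

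For the 13 circRNAs and hosts with a named test, 189 of 227 alternatives kept direction and side of 0.01, 33 no longer passed, 5 newly passed and 0 changed sign. The causes were not tested where none is given.

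Low counts are a limit, since many minor circRNAs have under 10 reads per library and a count of 1 is not listed. Junctions alone do not show which exons a circle holds, and the listed spliced lengths do not exceed 667 nt in any member.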
